A study of Mus musculus with 4 samples.

Results

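The genes of respiratory complexes II, III and IV were followed in tibialis anterior (TA) muscle of young and old mice. A gene was included when its symbol was Sdha, Sdhb, Sdhc, Sdhd, Cyc1 or Cycs, or began with Uqcr or with Cox and a number, and when it had a value in all 4 samples. By this rule 31 of 20340 gene labels were included. There were 3 genes of complex II, 8 of complex III, 1 for cytochrome c, 11 for subunits of complex IV and 8 for factors that help to assemble complex IV or bind it (COX factors). All mice were wild type of the C57BL/6 strain, and no treatment is given. They were 20 months of age for the samples Old 1 and Old 2, and 3 months of age for Young 1 and Young 2. The labels do not say how many mice went into a sample, and the sex of the mice is described only as chosen at random.

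Complex II, also called succinate dehydrogenase, oxidizes succinate in the citric acid cycle and passes the electrons to ubiquinone in the inner mitochondrial membrane. Complex III takes electrons from ubiquinone and gives them to cytochrome c, a small soluble carrier, and complex IV (cytochrome c oxidase) passes them on to oxygen. Complexes III and IV also pump protons, and the gradient they build drives ATP synthesis, on which working muscle depends. Most subunits are encoded in the nucleus, and several subunits of complex IV exist as a form common to many tissues and a form found mainly in heart and skeletal muscle.

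RNA for most of the tested subunits was lower in old muscles. Of 20 tested subunits of the complexes, 12 fell and 0 rose, with a median log2 fold change (Old over Young) of -0.52, or 0.699 times the young level. Cyc1 of complex III fell the most, to 0.466 times the young level, followed by Cox6a1 (0.504) and Cox7a1 (0.537) of complex IV. Cytochrome c (Cycs) also fell. Among the COX factors 0 fell, with Cox18, Cox10 and Cox15 just short of the threshold given below, and 1, Cox16, rose. In all, 13 of 29 tested genes (44.8%) fell and 1 rose, while among all 10266 genes tested 7.94% were lower and 5.61% were higher, 13.5% in either direction (limma with Benjamini-Hochberg adjustment, adjusted p under 0.05, 2 samples per age).

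The values were FPKM, sequenced fragments scaled to the length of the transcript and to the mapped fragments of the sample, so that levels can be compared between genes. Within an age, the samples stood apart by a similar factor for most genes, but not for all. Summed FPKM were 698130 in Old 1 and 226747 in Old 2, and 251294 in Young 1 and 739302 in Young 2. Loci at 0 numbered 5223 and 9558 in Old 1 and Old 2, and 9452 and 5335 in Young 1 and Young 2. Among the 27 genes of these complexes with at least 1 FPKM in every sample, the ratio of Old 1 to Old 2 lay between 1.92 and 2.41, and that of Young 2 to Young 1 between 1.84 and 2.40. Each sample was therefore divided by its median ratio to the geometric mean of the 4 samples over 7228 genes. This factor was 1.46 for Old 1, 0.680 for Old 2, 0.689 for Young 1 and 1.47 for Young 2. Values after this division are called scaled FPKM, and fold changes are on the log2(scaled FPKM + 1) scale. After scaling, the robust SD of the log2 ratio over those genes was 0.13 between the samples of either age, against 0.40 between Old 1 and Young 2. The labels do not say that the samples of an age came from separate mice, so p-values measure only the spread between these samples, and if the 2 samples of an age are 1 library, each age has n = 1. Without scaling, limma called 0 of the 29 genes (0 also at an unadjusted p under 0.05), against 0.302% of all genes tested, and 58.1% of those calls were in the higher direction, against 41.4% with scaling. It called 1 of them lower after quantile normalization (Cox6a1), and 2 without the filter on low values (Cox6a1 and Cox8a) or without the trend (Cox6a1 and Cyc1). When 1 sample was left out, an age held only 1 sample, and the calls among these genes changed. They did not hold without Old 2 or without Young 1, where nearly all calls among all genes tested were lost as well. Without Old 1 and without Young 2, Cox4i2 and Cox6b2 were no longer tested. The log2 fold change lay between -1.12 and -1.07 for Cyc1 and between -1.05 and -0.94 for Cox6a1. Uqcrh, Cox4i2 and Cox6b2 changed sign in at least 1 of these fits. Cox16 was not past the threshold with any one of the 4 samples left out.

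**Figure D1:**
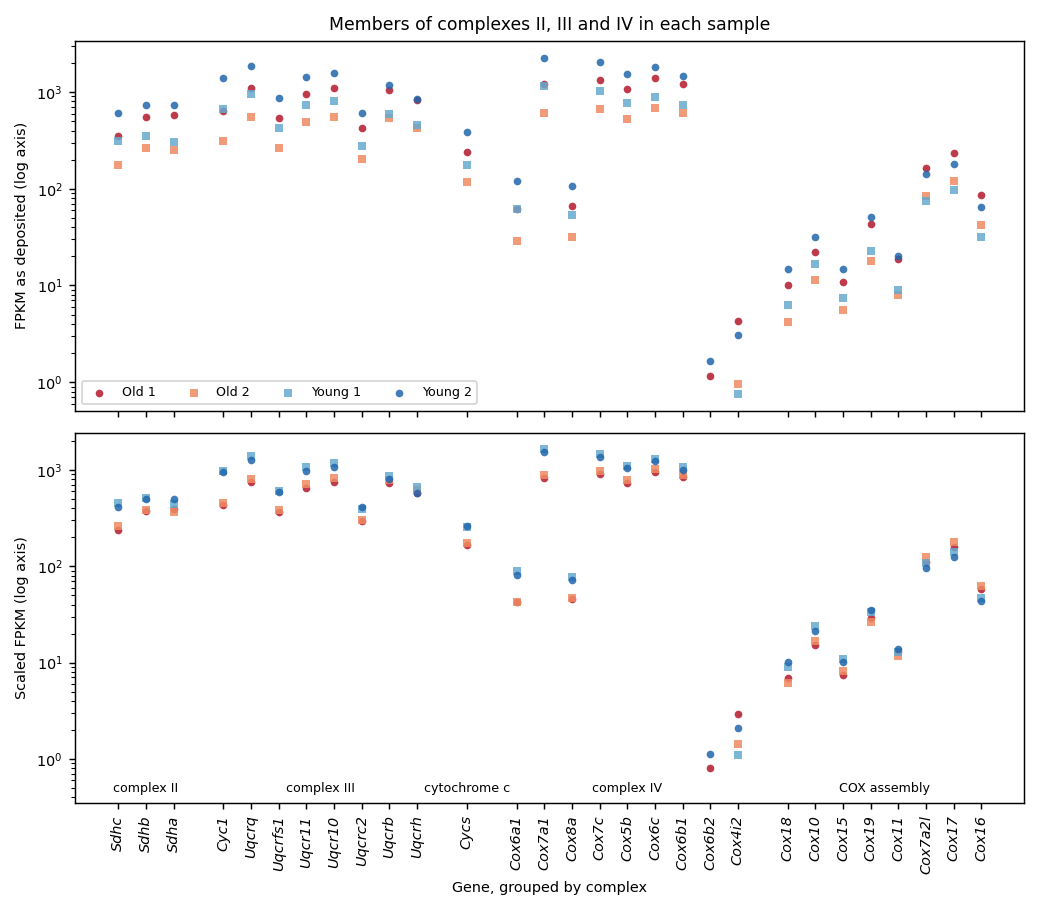
FPKM of the 29 tested genes in each of the 4 samples, as deposited (top) and after scaling (bottom), on log axes, with genes grouped by complex; circles are Old 1 and Young 2, squares are Old 2 and Young 1, and a value of 0 is not drawn. As deposited, the circles lie near 2 times the squares of the same age (ratios of 1.84 to 2.41 for the 27 genes with at least 1 FPKM in every sample). After scaling, the samples of an age lie closer together for most genes but stay apart for Cox4i2 and Cox6b2, and both old samples lie below both young samples for 23 genes.

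After scaling, both old samples lay below both young samples for 23 of the 29 genes and above them for 3. The same was seen for 28.4% and 27.8% of all genes tested. Among the 29 genes, levels in the young samples covered a wide range. They ran from 0 and 1.12 scaled FPKM for Cox6b2 to 1666.5 and 1547 scaled FPKM for Cox7a1, the highest of these genes. In the old samples Cox6c was the highest of them, with 950.1 and 1015 scaled FPKM, but its range overlapped that of Cox7c (910.3 and 987 scaled FPKM). Cox6a2 and Cox8b, with values in Old 2 and Young 1 only, were not ranked. As deposited, Cox6a2 had 1190 FPKM in Young 1, against 1148 FPKM for Cox7a1. In Old 2, Cox6a2 and Cox8b had 1050 and 755 FPKM, against 690 FPKM for Cox6c.

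Complex II has 4 subunits, of which Sdha, Sdhb and Sdhc had values in all samples and Sdhd was not analysed here. Sdhc fell the most. This gene encodes a membrane anchor of the complex and lies on chromosome 1 from 171129157 to 171150603 (mm10, as are all loci given). It was measured at 352 FPKM (Old 1), 178 FPKM (Old 2), 310.0 FPKM (Young 1) and 611 FPKM (Young 2). As deposited the ages overlapped, since Old 1 lay above Young 1, and after scaling they did not, with 241 and 262 against 450.1 and 415 scaled FPKM. The log2 fold change was -0.78 (standard error, SE, 0.09; limma adjusted p = 0.0311).

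Sdhb, the iron-sulfur subunit (chromosome 4, 140961271 to 140979192), had 549 and 263 FPKM in Old 1 and Old 2 and 351 and 740.0 FPKM in Young 1 and Young 2. Its log2 fold change of -0.41 (SE 0.06) was past the threshold (adjusted p = 0.0459 from limma). Sdha encodes the flavoprotein that oxidizes succinate (chromosome 13, 74322255 to 74350240). It had 582, 251, 306 and 732 FPKM in Old 1, Old 2, Young 1 and Young 2. Scaled, these were 398, 369, 444 and 498, so both old samples were below both young samples. The log2 fold change of Sdha was -0.29 (SE 0.10), which did not pass the threshold (adjusted p = 0.147 from limma). The ratio of Sdhc to Sdha within a sample, which does not depend on the scaling, was 0.605 in Old 1 and 0.711 in Old 2, against 1.01 in Young 1 and 0.834 in Young 2. This ratio and the other ratios between genes given here were chosen after the values were seen and were not tested.

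In complex III, 5 of the 8 genes with a value in all 4 samples fell (Cyc1, Uqcrq, Uqcrfs1, Uqcr11 and Uqcrc2) and 0 rose. The median log2 fold change was -0.55, and both old samples were below both young samples for 7 of the 8. Cyc1 encodes cytochrome c1, the subunit that hands electrons to cytochrome c (chromosome 15, 76343523 to 76345934). It was measured at 640 FPKM (Old 1), 308 FPKM (Old 2), 665 FPKM (Young 1) and 1393 FPKM (Young 2). Scaled values were 437 and 454 in the old samples and 965 and 947 in the young samples. The log2 fold change of -1.10 (SE 0.07, limma adjusted p = 0.0226) was the largest among the 29 genes.

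Uqcrq, a small subunit (chromosome 11, 53428948 to 53430831), had 1094 and 548 FPKM in Old 1 and Old 2 and 953 and 1877 FPKM in Young 1 and Young 2. Its log2 fold change was -0.77 (SE 0.09, limma adjusted p = 0.0315). Uqcrfs1 encodes the Rieske iron-sulfur protein, the first electron acceptor from ubiquinol (chromosome 13, 30539536 to 30545495). It had 534 and 261 FPKM in the old samples and 421 and 877 FPKM in Young 1 and Young 2, and its log2 fold change was -0.69 (SE 0.07, limma adjusted p = 0.0289). Once scaled, the young values of both genes lay above the old values with no overlap.

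Uqcr11, another small subunit, and Uqcrc2, a core protein, fell by 0.58 and 0.45 on the log2 scale. The locus of Uqcrc2 overlaps that of Pdzd9, so fragments may have been split between them. Uqcr10 had a log2 fold change of -0.53 and just missed the threshold (adjusted p = 0.0554 from limma). The remaining subunits with values, Uqcrb and Uqcrh, had log2 fold changes of -0.14 and -0.04. Uqcrh encodes the hinge protein, which sits next to cytochrome c1 in the complex. It had 837 and 424 FPKM in Old 1 and Old 2 and 456 and 839 FPKM in Young 1 and Young 2. Its scaled values of the ages overlapped (572 and 624 against 662 and 571). The ratio of Cyc1 to Uqcrh within a sample was 0.764 in Old 1 and 0.728 in Old 2, against 1.46 in Young 1 and 1.66 in Young 2. RNA for these neighbouring subunits thus stood in another proportion at each age, with Cyc1 below Uqcrh in both old samples and above it in both young samples.

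Cycs, the somatic form of cytochrome c (chromosome 6, 50562563 to 50566474), had 242 and 118 FPKM in Old 1 and Old 2, against 178 and 382 FPKM in Young 1 and Young 2. After scaling these were 165 and 173 against 258 and 260.0. The samples of an age lay close together, and the ages did not overlap. The log2 fold change was -0.61 (SE 0.06, limma adjusted p = 0.0291).

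**Figure D2:**
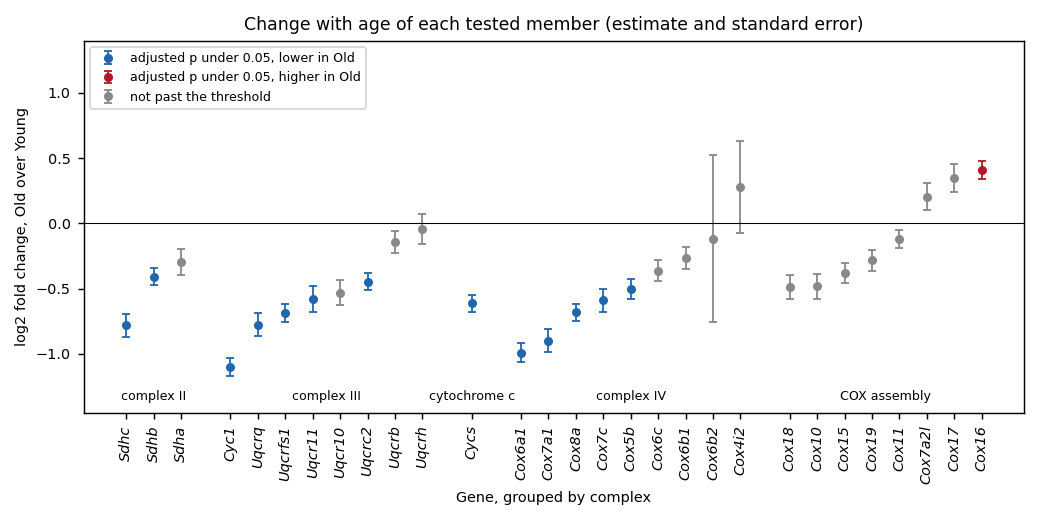
Log2 fold change (Old over Young) of each tested gene, with bars for the standard error (SE) from limma, grouped by complex; blue and red mark genes past an adjusted p of 0.05. The 12 subunits and Cycs in blue lie between -1.10 and -0.41, the COX factors lie on both sides of 0, and Cox6b2 and Cox4i2 have the widest bars.

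Of 11 genes for subunits of complex IV with a value in all 4 samples, 9 were tested, 5 fell (Cox6a1, Cox7a1, Cox8a, Cox7c and Cox5b) and 0 rose. The median log2 fold change was -0.50. These counts do not cover all subunits of complex IV. Cox6a1 encodes the common form of subunit 6a (chromosome 5, 115345654 to 115348955). It had 62.0 and 28.8 FPKM in Old 1 and Old 2, against 61.2 and 119.9 FPKM in Young 1 and Young 2. Scaled values were 42.4 in both old samples and 88.9 and 81.6 in the young samples. Its log2 fold change was -0.99 (SE 0.07, limma adjusted p = 0.0236).

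Cox7a1 encodes the form of subunit 7a found mainly in heart and skeletal muscle (chromosome 7, 30184171 to 30186030). It had 1209 and 610 FPKM in Old 1 and Old 2 and 1148 and 2274 FPKM in Young 1 and Young 2. The log2 fold change of Cox7a1 was -0.90 (SE 0.09, limma adjusted p = 0.0287). Both the common Cox6a1 and the muscle form Cox7a1 therefore fell, and the ratio of Cox7a1 to Cox6a1 was 19.5 and 21.2 in the old samples and 18.7 and 18.96 in the young samples. These are forms of different subunits, so this ratio does not compare the forms of 1 subunit. For subunits 6a and 8, the muscle forms Cox6a2 and Cox8b had values only in Old 2 and Young 1. As deposited, their ratios of Old 2 to Young 1 were 0.882 and 0.953, against 0.471 and 0.601 for Cox6a1 and Cox8a. Cox8a, the common form of subunit 8 (chromosome 19, 7215158 to 7217616), had 66.6 and 31.9 FPKM in Old 1 and Old 2, against 53.2 and 106 FPKM in Young 1 and Young 2. Its log2 fold change was -0.68 (SE 0.07, limma adjusted p = 0.0278).

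Cox7c and Cox5b, which have no muscle form, fell by 0.59 and 0.50 on the log2 scale. Cox6c and Cox6b1 had log2 fold changes of -0.36 and -0.26 and did not pass the threshold (adjusted p of 0.0740 and 0.133 from limma), although both old samples were below both young samples for each. Cox6b1 had 1224 and 610 FPKM in Old 1 and Old 2 and 740 and 1482 FPKM in Young 1 and Young 2. Isoforms known from testis or lung were near the lower limit. Cox6b2, a testis form, had 1.17 FPKM in Old 1 and 1.64 FPKM in Young 2 and was listed at 0 in Old 2 and Young 1. Cox4i2, a form of subunit 4 known from lung, had 4.29 and 0.960 FPKM in Old 1 and Old 2 and 0.755 and 3.05 FPKM in Young 1 and Young 2, and the ages overlapped. Cox7b2 was listed at 0 in all samples but Young 2, where it had 0.248 FPKM, and Cox8c was listed at 0 in all 4 samples, and neither was tested.

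Upstream sequences were read for genes of this set from the RefSeq table of promoters (GRCm38.p6), which held 21 of the 31. The windows run from 250 bases before to 50 bases after a start site. Letters of 4 motifs, of factors known for binding at nuclear genes of mitochondrial proteins, were searched on both strands, and a match is only a description of the letters. CCGGAAG, the core bound by ETS factors such as GABP, was found in 9 of the 21 windows (42.9%), against 8.86% of all 32851 windows and 17.3% of 8420 windows of the genes tested here. The core bound by NRF1 (GCGCA, any base, then GCGC) was found in 2 (9.52%), against 4.60% of all windows and 10.1% of those of tested genes. AAGGTCA, bound by estrogen-related receptors, was found in 0 of 21, against 4.72% of all windows and 3.23% of those of tested genes. AANATGGC, bound by YY1, was found in 1, against 6.05% and 8.38%. No window of Cyc1 or Sdhc was in the table.

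The upstream stretches of Cox6a1 and Cox7a1, which fell the most in complex IV, and of Cox16, which rose, are shown 5′ to 3′ on the strand of the gene, without annotated exons. Capitals mark the NRF1 core in Cox6a1 and the ETS core (reverse strand) in Cox16, and Cox7a1 holds no match. The full window of Cox6a1 also holds 1 ETS match, outside the stretch shown. ETS matches were also found for Cox8a, Sdhb and Uqcr11, which fell, and for Cox10, Cox15, Uqcrh and Cox6b1, which did not pass the threshold. The stretch of Cox6a1 is chr5:115348982-115349129 (minus strand), that of Cox7a1 is chr7:30183921-30184143 (plus strand), and that of Cox16 is chr12:81485138-81485387 (minus strand).
Cox6a1: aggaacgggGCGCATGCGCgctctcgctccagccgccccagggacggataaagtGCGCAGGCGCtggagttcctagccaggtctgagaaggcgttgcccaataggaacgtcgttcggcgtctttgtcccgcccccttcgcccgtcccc
Cox7a1: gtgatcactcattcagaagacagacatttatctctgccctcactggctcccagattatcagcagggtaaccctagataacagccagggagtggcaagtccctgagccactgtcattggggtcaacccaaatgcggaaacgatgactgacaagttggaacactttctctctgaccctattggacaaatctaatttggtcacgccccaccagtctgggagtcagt
Cox16: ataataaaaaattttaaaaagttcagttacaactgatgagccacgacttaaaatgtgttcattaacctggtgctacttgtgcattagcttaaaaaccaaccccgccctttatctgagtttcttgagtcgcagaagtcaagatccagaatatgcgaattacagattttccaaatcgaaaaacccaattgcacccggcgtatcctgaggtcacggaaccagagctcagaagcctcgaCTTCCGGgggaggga

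Of the 8 COX factors, 0 fell and 1 rose in the fit without pairs, and the median log2 fold change was -0.20, from -0.49 for Cox18 to 0.41 for Cox16. Cox16, an assembly factor (chromosome 12, 81359016 to 81485117), had 85.4 and 42.3 FPKM in Old 1 and Old 2, against 31.9 and 64.7 FPKM in Young 1 and Young 2. Scaled values were 58.4 and 62.3 in the old samples and 46.3 and 44.0 in the young samples. Its log2 fold change was 0.41 (SE 0.07, limma adjusted p = 0.0496), just inside the threshold. The locus of Cox16 also holds Adam4 and Gm4787, so fragments may have been shared.

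The other COX factors did not pass the threshold in the fit without pairs, and their log2 fold changes lay on both sides of 0. Cox18, Cox10 and Cox15 missed it narrowly as lower (adjusted p of 0.0572, 0.0616 and 0.0633 from limma). Cox17, the chaperone that carries copper to complex IV, had 233 and 120.3 FPKM in Old 1 and Old 2 and 96.8 and 182 FPKM in Young 1 and Young 2. Its log2 fold change was 0.35 (adjusted p = 0.127 from limma). Cox7a2l, a relative of subunit 7a known for joining complex III with complex IV in supercomplexes and shortened as a protein in C57BL/6 mice, had 162 and 84.5 FPKM in Old 1 and Old 2 and 73.9 and 142 FPKM in Young 1 and Young 2, a log2 fold change of 0.21. For Cox16, Cox17 and Cox7a2l the scaled old values lay above the young values with no overlap. The ratio of Cox7a1 to its relative Cox7a2l was 7.46 in Old 1 and 7.22 in Old 2, against 15.5 in Young 1 and 16.1 in Young 2. Cox10 and Cox15, which make the heme A of complex IV, had log2 fold changes of -0.48 and -0.38, and Cox18 and Cox19, which act in membrane insertion and copper delivery, of -0.49 and -0.28. Cox11, also needed for copper delivery, was at -0.12. With 1 sample left out, the log2 fold change lay between -0.57 and -0.40 for Cox18. It lay between -0.56 and -0.41 for Cox10 and between -0.43 and -0.32 for Cox15. For Cox10, Cox11, Cox15, Cox18 and Cox19 both old samples were below both young samples once scaled. The locus of Cox11 overlaps Tom1l1 and that of Cox15 overlaps Entpd7. The ratio of Cox17 to Cox10 was 10.6 and 10.5 in the old samples and 5.88 and 5.77 in the young samples.

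**Figure D3:**
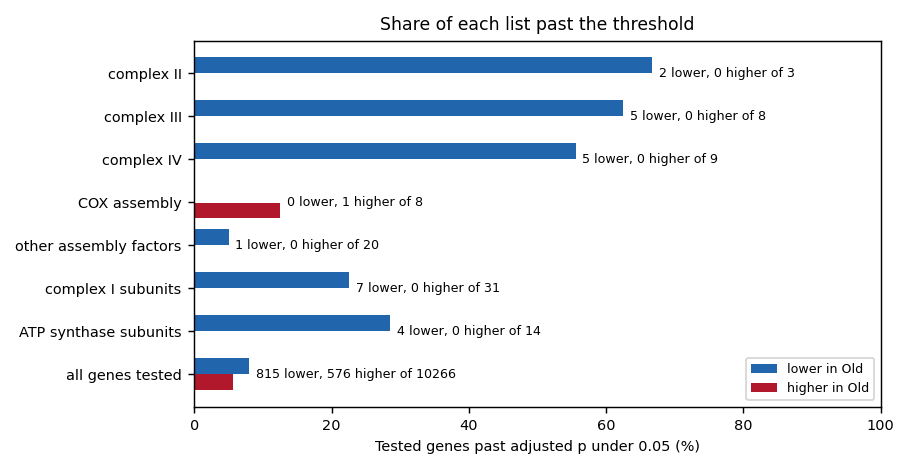
Share of tested genes past an adjusted p of 0.05 (limma) in each list, lower in Old in blue and higher in Old in red, with the counts written beside the bars. For complexes II, III and IV, 2 of 3, 5 of 8 and 5 of 9 genes were lower, against 815 of 10266 of all genes tested.

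Assembly factors outside the rule were taken from a list of 29 genes for complexes II to IV. Of these, 20 had a value and were tested, and 1 fell and 0 rose. The median log2 fold change was -0.02. These numbers include Ndufa4, which is counted today as a subunit of complex IV and not as an assembly factor. Its log2 fold change was -0.13 (adjusted p = 0.364 from limma). The gene that fell was 1110058L19Rik, now called Sdhaf4, an assembly factor of complex II, with 35.0 and 15.9 FPKM in Old 1 and Old 2 and 22.2 and 44.4 FPKM in Young 1 and Young 2 (log2 fold change -0.38, SE 0.06, limma adjusted p = 0.0473). For comparison, 7 of 31 subunits of complex I fell with a median log2 fold change of -0.35 over the list, as did 4 of 14 genes of ATP synthase, with a median of -0.35. Over all genes tested the median was -0.01. Among 433 other genes with a mean of at least 100 scaled FPKM, the level of most subunits, it was 0.02, and 51 were lower and 31 higher. Whether the lists differ from each other was not tested.

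Markers of fiber types and of other cells were read in the same samples. Of 7 slow-fiber markers 6 had values and all 6 rose, with a summed level of 877 and 679 scaled FPKM in the old samples against 52.2 and 60.5 in the young samples. Of 9 fast-fiber markers 8 had values, and among 7 tested 1 rose (Myh1) and 1 fell (Tnnt3). In all, 3 had values of 0: Tnnt3 in Old 1 and Old 2, Myh1 in Young 1 and Young 2, and Myh4 throughout. The changes of Myh1 and Tnnt3 thus rest on values of 0 in 1 age, which may be failed estimates. The summed level of the fast-fiber markers did not separate the ages (69365 and 22166 scaled FPKM in Old 1 and Old 2, 29444 and 57294 in Young 1 and Young 2). Of 10 skeletal muscle markers 8 had values, and Ckm was listed at 0 in all 4 samples, which may be a failed estimate. The alpha-globin locus had 415 and 408 scaled FPKM in the old samples and 57.3 and 60.3 in the young samples. Of 5 fibroblast markers 3, all collagens, fell, with a summed level over the 5 of 114 and 127 against 182 and 168 scaled FPKM. Among 3 tested macrophage and leukocyte markers 1 rose and 1 fell, and their summed level was 26.3 and 25.3 against 27.0 and 28.8 scaled FPKM. None of the 6 adipocyte and 3 endothelial markers tested passed (limma). Summed adipocyte markers were at 306 and 246 scaled FPKM in Old 1 and Old 2 and at 266 and 342 scaled FPKM in Young 1 and Young 2. Heart markers summed to at most 2.86 scaled FPKM, with Nppb and Myl7 listed at 0 in all samples. The part of fiber type and of other cells in the lower levels of the subunits was not tested. In whole muscle, fewer fibers of a kind and less RNA per fiber cannot be told apart.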

How the data were processed

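RNA sequencing data from TA muscle of 2 Old and 2 Young samples were used, grouped by title and age. Reads had been stripped of adapters, low-quality ends and PCR duplicates and aligned to mm10 by TopHat2 2.0.10 with RefSeq genes as a guide. The authors deposited FPKM per locus, obtained with Cufflinks for each sample on its own. The labels name Cuffdiff 2.1.1, which was not repeated. In each sample 1 incomplete last line was left out. Across all 4 samples 20605 loci had a value, and these ended within chromosome 7 in text order, and genes further on were not analysed here. Depth is unknown, since FPKM hold no counts and low values showed no steps of whole reads, so no counting error is given and no count test was run. Rows of one symbol were summed.

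log2(scaled FPKM + 1) was compared with limma 3.58.1 in R 4.3.3 (lmFit, eBayes with trend, two-sided), with Benjamini-Hochberg adjustment over all genes tested and an adjusted p under 0.05 as threshold. Genes were tested when 2 or more samples had 1 FPKM or more. The code of the fit was run on simulated data with independent noise and no pairs of samples. That run does not test the calls in these data. Python 3.11.15 with pandas 2.3.3, numpy 2.4.6 and matplotlib 3.10.9 was used for tables and plots. Full statistics are given for the 3 largest decreases and 2 largest increases past the threshold in each complex and for Sdha, Sdhb, Sdhc and Cycs, values for isoform families, and other genes by counts. Members and lists were chosen with earlier results of these data known. Genes with near-identical processed copies may have shared fragments. Alternatives were no scaling, quantile normalization, a pseudocount of 0.1, other filters, the replicate number as a block, the highest row per symbol, a fit with no trend, and leaving out each sample.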

Additional observations from a re-analysis of the deposited data

How the results depend on the processing

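The median log2 fold changes of complexes II, III and IV stayed below 0 under all alternatives run. Of these, a block or a fit with no trend cannot change the medians in this balanced design. Leaving out the scaling moves most of these genes by nearly the same small amount. The number of calls moved with the scaling, the filter, the trend, the block and the samples left out. With scaling, 576 genes were higher and 815 lower in Old, and 1 and 13 of these complexes. With FPKM as deposited they were 18 and 13, and 0 and 0. Quantile normalization gave 89 and 136, and 0 and 1, with medians of -0.31 for complex II, -0.31 for complex III and -0.11 for complex IV, and it turned the sign of Cox6b1 (0.28), Cox6c (0.070), Uqcrb (0.27) and Uqcrh (0.13), none past the threshold. Without a filter they were 114 and 202, and 0 and 2 (complex IV median -0.43), and when all 4 samples had to reach 1 FPKM 1222 and 1302, and 1 and 17, with 3 COX factors among the lower (complex IV median -0.59). Without the trend they were 103 and 181, and 0 and 2. The pseudocount of 0.1 and the highest row per symbol changed no call among the 29 genes.

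By scaling factor, Old 1 (1.46) went with Young 2 (1.47) and Old 2 (0.680) with Young 1 (0.689), not by replicate number. On log2(FPKM as deposited + 1), deviations from the age means had a correlation of -0.885 between same-numbered samples over 10266 genes. Those values still held the overall factor, which runs in opposite order at the 2 ages. The correlation therefore cannot show a pairing gene by gene. With the replicate block limma called 24 higher and 21 lower, and 0 and 0 of these complexes. At an unadjusted p under 0.05 there were 12 genes of these complexes, against 1535 of all 10266 genes tested. With the crossed pairs as a block, added after seeing the data, it called 3242 and 3503 (65.7% of all genes tested), and 4 and 23, among them 3 COX factors higher and 5 lower. When 1 sample was left out, the lone sample of that age being assumed to vary like the others, 0 to 619 genes were higher and 1 to 773 lower, and of these complexes 0 were higher and 0 to 9 lower. The medians then ranged from -0.42 to -0.38 for complex II, from -0.62 to -0.49 for complex III, from -0.64 to -0.53 for complex IV and from -0.25 to -0.12 for the COX factors. Uqcrh ranged from -0.15 to 0.056, changing sign without Old 1 (0.022) and without Young 1. Cox4i2 ranged from -0.0042 (without Young 1) to 0.67, and Cox6b2 from -0.72 to 0.35 (without Old 2). The complex IV median did not cover the same genes in every fit. Cox4i2 and Cox6b2 were not tested without Old 1, without Young 2 or when all 4 samples had to reach 1 FPKM. Without a filter the median also took in Cox7b2. The cause of the other moves was not tested. The depth of the samples is unknown, so its part in the genes that did not pass was not tested.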

Other observations

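The muscle forms of subunits 6a and 8 of complex IV, Cox6a2 and Cox8b, had values only in Old 2 and Young 1, so they belong to no comparison above and were not tested. Cox6a2 had 1050 FPKM in Old 2 and 1190 FPKM in Young 1 as deposited, a ratio of 0.882. Cox8b had 755 FPKM in Old 2 and 792 FPKM in Young 1, a ratio of 0.953. In the same pair of samples the common forms Cox6a1 and Cox8a had ratios of 0.471 and 0.601, and the muscle form Cox7a1 had a ratio of 0.532. Each age has only 1 such sample, without a replicate.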
